A study of Rattus norvegicus with 5 samples.

Results

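Genes whose symbols start with Ift, Bbs or Cep followed by a digit were followed through the cell classes of the rat retina: 54 genes of the 25399 in the deposited feature lists, of which 13 are Ift genes, 8 are Bbs genes and 33 are Cep genes. The rule uses gene names only, although the group was proposed with earlier results of these data known. The Ift genes encode intraflagellar transport (IFT) proteins, which carry cargo along the microtubules of cilia. Outward transport by kinesin depends mainly on the IFT-B complex and inward transport by dynein mainly on the IFT-A complex. The Bbs genes encode subunits of the BBSome, a coat-like complex that rides on the IFT trains and removes membrane proteins from cilia, and the chaperonin-like proteins that assemble it; their loss in people causes Bardet-Biedl syndrome, in which the retina degenerates. The Cep genes encode centrosomal proteins that build centrioles, dock them at the membrane as basal bodies or form the gate at the base of the cilium. A rod or cone outer segment is itself a modified cilium, joined to the cell body by a thin connecting cilium through which all of its phototransduction proteins pass.

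The study asked how retinal cells change early in experimental diabetes, and its libraries were single-cell RNA libraries of Sprague-Dawley (SD) rat retina. Diabetic rats had received 1 injection of streptozotocin (STZ), a toxin of pancreatic beta cells, at 45 mg/kg, had a blood glucose above 200 mg/dL and were then kept on a diet high in fat and sugar for 2, 4 or 8 weeks. Control rats had received citrate buffer and were sampled at 0 weeks. Each time was 1 library, and 1 control library (control replicate 2) was used, since a count matrix of control replicate 1 was not analysed here. STZ, diet, time since injection and the individual library can therefore not be told apart. Ages were not given in the sources used here.

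The 4 libraries held 9742 (control), 16128 (2 weeks), 10717 (4 weeks) and 7649 (8 weeks) barcodes with 25068331, 34177860, 20151789 and 24604362 unique molecular identifiers (UMIs, each a counted RNA molecule). After filters, 6823, 10984, 7689 and 4283 cells were left, with a median of 902 to 1408 UMIs. Cells were clustered without the 54 genes and named from marker genes, and UMIs were summed per library and class. A level is given as CPM, the gene's UMIs per 1000000 UMIs of the class sum, and a mean ± SD over the 4 libraries spans control and diabetic retina. Between 3054 and 7222 rods and 57 to 173 cones per library were found, beside 4 other classes with at least 50 cells in each library: bipolar cells, amacrine cells, Müller glia and microglia. All 10 rod markers were detected in the rods of each library, where they summed to 40811.4 CPM (control), 74913.5 CPM (2 weeks), 50624.6 CPM (4 weeks) and 50265.1 CPM (8 weeks). All 8 cone markers were detected in the cones of each library, where they summed to between 26028 and 50039.5 CPM. Rod RNA was also present outside rods: rod markers stood in bipolar cells at 18.7% (control), 28% (2 weeks), 19% (4 weeks) and 59.9% (8 weeks) of their level over all cells of the library, and in Müller glia, amacrine cells and microglia at 4.54% to 23.5%, with the highest values at 2 weeks. In cones rod markers stood at 11.8% (control), 21.2% (2 weeks), 9.09% (4 weeks) and 9.57% (8 weeks) of that level. Each of these percentages is the median over the 10 rod markers, which differs from a ratio of sums. Summed, the 10 rod markers ran from 14159.4 CPM (4 weeks) to 23432.6 CPM (2 weeks) in cones. Pairs of libraries shared between 13 and 70 barcodes, at most 0.653% of the smaller one.

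Promoters are shown first, for those members with a match to the X-box, the site bound by RFX factors ahead of many ciliary genes. The X-box-like pattern searched was GTNNCC, any 3 bases and GNNAC, on either strand of the 300 bases from 250 before to 50 after the gene start in the RefSeq promoter table (build GRCr8), where 46 of the 54 genes had an entry. It was found in 4 of the 46 (8.7%), against 4.6% of all promoters in the table and 5.3% of promoters of the genes tested below. Capitals mark the matches.
Cep112, chr10:93865449-93865748, plus strand: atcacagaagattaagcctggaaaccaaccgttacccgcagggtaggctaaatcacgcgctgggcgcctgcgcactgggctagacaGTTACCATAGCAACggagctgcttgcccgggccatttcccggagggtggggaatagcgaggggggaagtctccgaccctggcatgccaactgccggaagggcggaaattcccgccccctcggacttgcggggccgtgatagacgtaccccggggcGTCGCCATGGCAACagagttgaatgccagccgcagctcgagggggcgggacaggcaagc
Ift140, chr10:14537216-14537515, plus strand: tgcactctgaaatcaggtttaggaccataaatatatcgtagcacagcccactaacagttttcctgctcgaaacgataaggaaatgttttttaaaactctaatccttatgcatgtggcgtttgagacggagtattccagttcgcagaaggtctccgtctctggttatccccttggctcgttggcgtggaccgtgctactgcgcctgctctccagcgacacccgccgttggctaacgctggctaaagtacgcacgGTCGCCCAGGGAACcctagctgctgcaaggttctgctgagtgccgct
Ift22, chr12:25405461-25405760, minus strand: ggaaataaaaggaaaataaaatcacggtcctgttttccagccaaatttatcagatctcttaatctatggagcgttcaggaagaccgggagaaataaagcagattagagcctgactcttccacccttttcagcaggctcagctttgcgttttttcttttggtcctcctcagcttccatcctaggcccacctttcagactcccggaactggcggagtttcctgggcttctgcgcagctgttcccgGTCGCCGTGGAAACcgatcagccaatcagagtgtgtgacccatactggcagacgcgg
Cep83, chr7:31167117-31167416, plus strand: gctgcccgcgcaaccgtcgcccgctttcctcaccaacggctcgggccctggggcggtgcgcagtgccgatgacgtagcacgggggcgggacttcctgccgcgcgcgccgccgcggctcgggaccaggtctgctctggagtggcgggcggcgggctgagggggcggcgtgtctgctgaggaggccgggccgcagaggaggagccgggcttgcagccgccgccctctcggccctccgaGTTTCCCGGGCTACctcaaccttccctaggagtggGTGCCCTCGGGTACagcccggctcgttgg
The promoter of Cep112 held a pair of matches, GTTACCATAGCAAC and GTCGCCATGGCAAC, starting at -164 and -9 relative to the gene start. Among these 4 genes, Cep112 was called higher in rods, Ift140 and Ift22 were not, and Cep83 had the lowest rod ratio of all members tested. The shorter half-site GTTGCC, which can also lie inside a full match and was searched after values had been seen, occurred in 14 of 46 member promoters (30.4%), against 12.2% of all promoters. It was in 8 of 22 promoters of members called higher in rods (36.4%) and in 6 of 19 of those tested and not called higher (31.6%). A CRX-like pattern, TAATCC, after the photoreceptor factor CRX, occurred in 6 of 46 (13%), against 7.11% of all promoters. This pattern was in 2 of 22 promoters of members called higher in rods (9.09%). Among those tested and not called higher it was in 3 of 19 (15.8%). The Cep genes with the largest rod ratios, whose promoters were chosen after their values were seen, carry 1 of these shorter patterns each, in capitals: the half-site (read on the other strand) for Cep164 and the CRX-like pattern for Cep290.
Cep164, chr8:55031157-55031456, minus strand: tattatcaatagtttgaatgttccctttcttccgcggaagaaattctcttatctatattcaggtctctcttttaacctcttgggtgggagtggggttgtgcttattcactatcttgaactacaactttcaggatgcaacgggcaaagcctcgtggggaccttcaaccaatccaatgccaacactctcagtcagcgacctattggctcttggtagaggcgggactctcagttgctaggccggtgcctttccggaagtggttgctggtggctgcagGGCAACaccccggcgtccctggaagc
Cep290, chr7:37196533-37196832, plus strand: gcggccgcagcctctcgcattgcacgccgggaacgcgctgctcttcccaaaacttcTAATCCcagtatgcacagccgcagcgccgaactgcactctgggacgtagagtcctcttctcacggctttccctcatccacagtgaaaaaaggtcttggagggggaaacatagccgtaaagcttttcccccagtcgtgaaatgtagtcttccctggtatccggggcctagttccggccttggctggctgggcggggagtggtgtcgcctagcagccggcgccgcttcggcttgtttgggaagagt
These matches are letters in a window, and no binding was measured. The promoters of Bbs9, Bbs7, Cep126 and Ift122, next in rod ratio, held 0 matches to any of the patterns searched.

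Taken as summed CPM, each of the 3 families stood highest in rods in every library. CPM is a share of a class's UMIs and not a number of molecules per cell. Median UMIs per cell in the control were 863 in rods and 3348 to 6471.5 in the other 5 classes. The 8 Bbs genes summed to 911.8 CPM (control), 901 CPM (2 weeks), 1102.9 CPM (4 weeks) and 1049.3 CPM (8 weeks) in rods. In cones the same sum ran from 490.6 to 568.7 CPM, in bipolar cells from 261.9 to 480.4 CPM, and in amacrine cells, Müller glia and microglia from 44.7 to 203.5 CPM. Photoreceptors of both kinds thus stood above every other class for this family, without overlap. The 33 Cep genes summed to 3316.1, 2266.8, 2680.9 and 3174.3 CPM in rods of the control, 2, 4 and 8 weeks libraries, and to between 320.7 and 1303.8 CPM in the other 5 classes. For this family cones, at 988.3 ± 77.8 CPM (SD, n = 4 libraries), stood beside bipolar cells, at 944.5 ± 244.5 CPM, rather than beside rods. The 13 Ift genes had the narrowest spread, with 888.2 ± 52.3 CPM in rods, 686.9 ± 109.5 CPM in cones, 700.8 ± 14.6 CPM in amacrine cells and 233.8 ± 23.5 CPM in microglia, the lowest class for all 3 families. Cones and amacrine cells overlapped in their Ift sums.

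**Figure D1:**
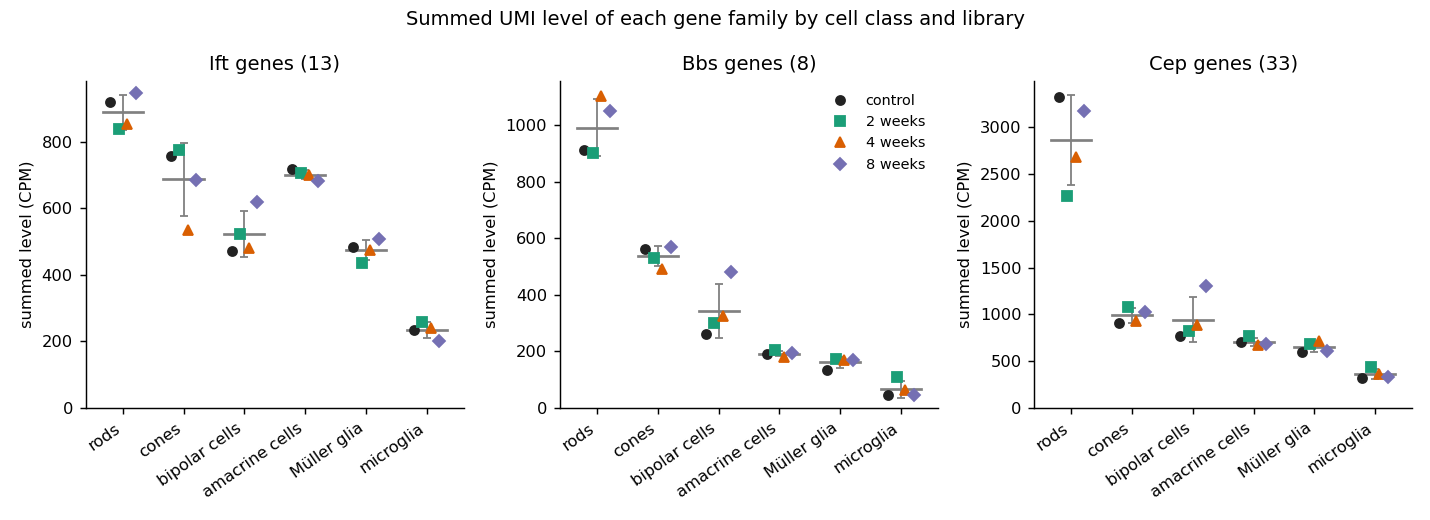
Summed level (CPM, vertical axes from 0) of the 13 Ift, 8 Bbs and 33 Cep genes in 6 cell classes; each point is 1 library, grey lines and bars give the mean and SD over 4 libraries. Rods are highest in each panel, and cones follow rods for the Bbs genes (490.6 to 568.7 CPM) but lie near bipolar cells for the Cep genes.

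To test single genes, class sums of all 4 libraries were fitted with edgeR's quasi-likelihood test with library as a block, so that classes were compared within libraries. A gene was called at a Benjamini-Hochberg adjusted p under 0.05 over all 10000 genes tested and at least a 2-fold difference. Of the 54 members 49 reached the minimum of 5 CPM on average over the class sums; 47 would have reached it on the non-photoreceptor sums alone, and Bbs12 and Ift140 passed with the photoreceptor sums only. The other 5 (Cep55, Cep72, Cep76, Cep85l and Cep295nl) did not reach it. Cep72 had 0 UMIs in every class sum, and Cep55, known for its part in the last step of cell division, had at most 1 UMI in any.

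Rods stood above the mean of the 4 non-photoreceptor classes for most members. Of the 49 tested, 28 were called higher and 0 lower, against 17.3% of all genes called higher and 20.5% called lower; of the 47 that pass the level minimum without photoreceptors, 27 were called higher. The median log2 ratio was 1.27 over the members tested and -0.03 over all genes tested. All 8 Bbs genes were called higher (median log2 ratio 2.24), as were 15 of 28 Cep genes (1.15) and 5 of 13 Ift genes (0.88). Among members that pass the level minimum without photoreceptors, these were 7 of 7 Bbs, 15 of 28 Cep and 5 of 12 Ift genes. With edgeR at an unadjusted p under 0.05, 39 members were higher and 3 lower at any fold, beside 38% and 34.7% of all genes. DESeq2's Wald test on the same sums called 27 higher and 0 lower, beside 14.2% and 28.5% of all genes. Rods had a higher CPM than each of the 4 other classes in all 4 libraries for 30 of the 49 members, which held for 21.2% of all genes tested.

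The BBSome genes were the most uniform group. Bbs7 had 221.8, 183.7, 246.3 and 275.9 CPM in rods of the control, 2, 4 and 8 weeks libraries, and Bbs9 had 112.1, 89.2, 90.5 and 112.8 CPM. In the 4 other classes Bbs7 ran from 3.16 to 44.6 CPM outside the bipolar cells of the 8 weeks library, which were at 106.3 CPM, and Bbs9 from 1.88 to 42 CPM, so rods did not overlap the other classes for either gene. Both encode core BBSome subunits. The log2 ratio of rods to the other classes was 3.03 ± 0.18 for Bbs7 (SE, adjusted p = 1.2e-15) and 3.14 ± 0.15 for Bbs9 (adjusted p = 1.1e-17). Bbs4, a subunit that links the complex to centriolar satellites, had 307.9, 370.5, 479.1 and 372.8 CPM in rods and 18.8 to 181 CPM in the 4 other classes, a log2 ratio of 2.25 ± 0.11. Bbs5, whose protein binds phosphoinositides, followed at 2.29 ± 0.14, with Bbs1 at 1.79 ± 0.20 and Bbs2 at 1.75 ± 0.16. The chaperonin-like genes Bbs12 (2.23 ± 0.34) and Bbs10 (1.27 ± 0.16) were higher as well, the first from only 17.3 ± 8.5 CPM in rods (SD, n = 4 libraries). Bbs12 passed the level minimum through the photoreceptor sums only, so its call adds no support.

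Among Ift genes the difference lay in some members of each complex and not in others. Ift122, a core IFT-A subunit, had 81.3, 58.5, 61.1 and 87.9 CPM in rods and between 0 and 26.5 CPM in the 4 other classes, with no overlap and a log2 ratio of 2.53 ± 0.15. The remaining IFT-A genes were under 2-fold, with Ift140 at 0.88 ± 0.26 from 10.5 ± 6.0 CPM in rods and Ift43 at 0.75 ± 0.13. Within IFT-B, Ift74 and Ift81, whose proteins together bind tubulin, were called higher at 1.68 ± 0.12 and 1.67 ± 0.15, and so were Ift80 at 1.77 ± 0.18 and Ift88 at 1.16 ± 0.20. Ift74 had 214.3, 177.4, 180.9 and 185.6 CPM in rods, above the 31.3 to 87.8 CPM of the other classes. Ift57 (0.94 ± 0.16) and Ift22 (0.74 ± 0.20), the latter a small GTPase, differed by under 2-fold. Ift20 (0.22 ± 0.10, adjusted p = 0.051), Ift52 (0.06 ± 0.13, adjusted p = 0.75) and Ift27 (-0.10 ± 0.14, adjusted p = 0.57) did not pass the test. Ift46 had 36.8, 32.1, 45.8 and 42.1 CPM in rods, under the 58.5 to 84.3 CPM of amacrine cells and Müller glia in every library; its log2 ratio to the mean of the other classes was -0.53 ± 0.13 (adjusted p = 6.4e-04), under 2-fold. The IFT-B genes were thus not raised as 1 block: their log2 ratios ran from -0.53 to 1.77.

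Cep genes had both the largest differences and the lowest ratios. Cep290, which encodes a protein of the gate between basal body and connecting cilium and is mutated in human congenital retinal blindness, had 1204.7, 647.7, 813.9 and 1214.1 CPM in rods. In the 4 other classes it had 42.6 to 181.6 CPM, except for 365.9 CPM in the bipolar cells of the 8 weeks library. Cep164, whose protein forms the distal appendages that dock the basal body, had 700.2, 620.3, 711.5 and 637 CPM in rods and 27.3 to 179.9 CPM in the other classes. Neither gene overlapped between rods and another class. The log2 ratios were 3.14 ± 0.14 for Cep290 (adjusted p = 4.4e-18) and 3.19 ± 0.13 for Cep164 (adjusted p = 4.3e-19), a 9.11-fold difference for the latter. Cep126 (2.72 ± 0.14), Cep112 (2.46 ± 0.17) and the distal appendage gene Cep89 (2.23 ± 0.15) came next among Cep genes. Cep135, whose protein belongs to the centriole wall and cartwheel, was at 2.07 ± 0.20. Also called higher were Cep162, needed for assembly of the transition zone (1.73 ± 0.17), Cep250, which holds paired centrioles together (1.72 ± 0.17), and Cep120, which acts in centriole elongation (1.57 ± 0.15). A distal appendage gene also had the lowest ratio: Cep83, with 23.7, 8.1, 14.6 and 21.2 CPM in rods, was at -0.58 ± 0.19 (adjusted p = 0.0084), and its rod values overlapped those of bipolar cells, Müller glia and microglia but lay under the 27.8 to 30.1 CPM of amacrine cells. Cep192, a recruiter of pericentriolar material (0.33 ± 0.20, adjusted p = 0.15), Cep19, which helps load IFT at the ciliary base (0.08 ± 0.12, adjusted p = 0.56), Cep78 (0.25 ± 0.26, adjusted p = 0.40) and Cep131 (-0.28 ± 0.18, adjusted p = 0.15) did not pass. Cep295, needed to turn a new centriole into a centrosome (0.68 ± 0.19), and Cep70 (0.41 ± 0.15) were under 2-fold.

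**Figure D2:**
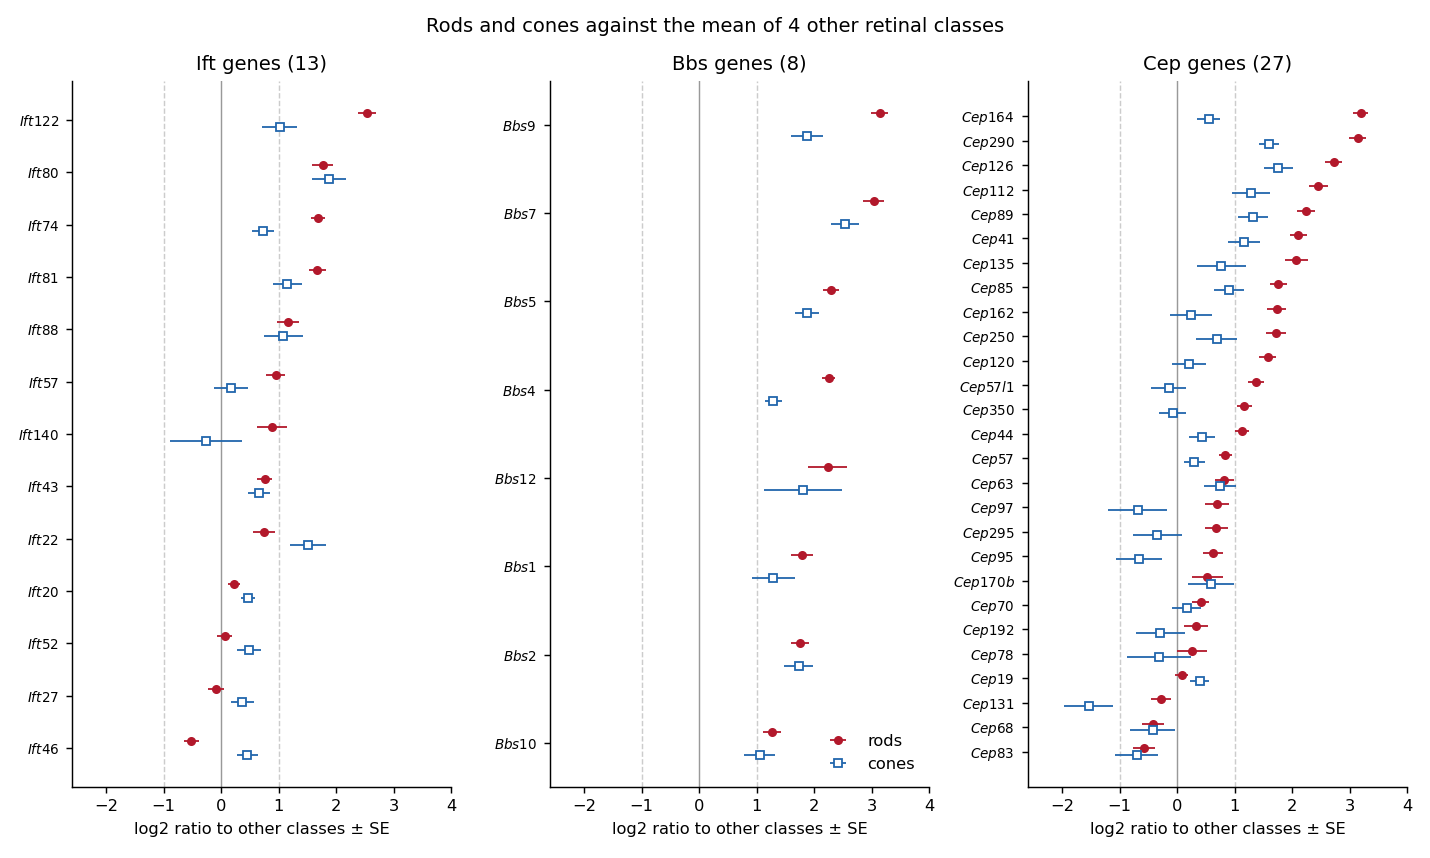
Log2 ratio (± SE) of rods (filled red circles) and cones (open blue squares) to the mean of bipolar cells, amacrine cells, Müller glia and microglia, for 13 Ift, 8 Bbs and 27 Cep genes; dashed lines mark 2-fold. All 8 Bbs genes lie right of the 2-fold line in both photoreceptor types, whereas Cep164 is at 3.19 in rods and 0.55 in cones. Bbs12 and Ift140 passed the level minimum with the photoreceptor sums only.

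Against single classes, 29 members were higher in rods than in Müller glia (20.2% of all genes), 30 than in amacrine cells (24%), 23 than in bipolar cells (13.8%) and 37 than in microglia (24.2%). A set of 20 members was called higher against each of the 4 classes, against 6.84% of all genes, or 19 of the 47 that pass the level minimum without photoreceptors; among them were Bbs2, Bbs4, Bbs5, Bbs7, Bbs9 and Bbs12, then Ift74, Ift81 and Ift122, and Cep89, Cep112, Cep126, Cep135, Cep162, Cep164, Cep250 and Cep290. The members called lower in rods were few and each went with 1 class. Amacrine cells had 56.6, 57.5, 64.2 and 43 CPM of Cep170b, where rods had 10.6 to 16.6 CPM (log2 ratio of rods to amacrine cells -2.09 ± 0.18, adjusted p = 6.7e-12). They also had 131.8 to 167.8 CPM of Ift27, a small GTPase of IFT-B, where rods had 38.1 to 63.7 CPM (-1.52 ± 0.16, adjusted p = 4.4e-10). Müller glia had 14.9, 26.3, 39.9 and 30.9 CPM of Cep78 and rods 5.0 to 13.3 CPM (-1.76 ± 0.27, adjusted p = 1.2e-06), and Ift46 was at -1.09 ± 0.16 against the same glia (adjusted p = 7.9e-07). The share of all genes called lower in rods was 25% against amacrine cells and 24.7% against Müller glia, beside 2 of 49 members in each case. Against bipolar cells and microglia 0 members were called lower, where 18.9% and 23% of all genes were. Below rods but highest among the 4 other classes were Cep57 in bipolar cells, at 63.9 to 70.9 CPM against 83.6 to 110.5 CPM in rods, and Cep135 in microglia, at 7.45 to 15.8 CPM against 28.3 to 44.6 CPM in rods. Ift57 in Müller glia (35.4 to 59.6 CPM) overlapped rods (41.9 to 70.9 CPM), and so did Cep97 in Müller glia, Cep68 in bipolar cells and Cep192 in microglia, all at 20 CPM or less in those classes.

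Bipolar cells, whose median rod marker level at 8 weeks was 59.9% of that of all cells, were 1 of the 4 comparison classes. With bipolar cells left out of the other classes, a choice made after seeing the data, 29 members and 19.6% of all genes were called higher in rods. With free RNA subtracted from the non-photoreceptor sums the count was 31, with 22.7% of all genes. Scaling moved the level of all genes: without TMM scaling the median of all genes in this contrast rose by 0.30 and 36 members were called higher, with 25.2% of all genes higher and 17% lower; with DESeq2's size factors it fell by 0.17, with 25 members, 14.2% of genes higher and 23.4% lower. The members' median stayed above that of all genes in each case, at 1.58 against 0.27 and at 1.10 against -0.19.

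Cones were then set against the same 4 classes. Of the 49 members tested, 19 were called higher and 1 lower, against 11% and 16.1% of all genes, and the median log2 ratio was 0.66 against -0.15 over all genes. All 8 Bbs genes, 5 of 13 Ift genes and 6 of 28 Cep genes were called higher; of the 47 members that pass the level minimum without photoreceptors these were 7 of 7, 5 of 12 and 6 of 28. Bbs7 had 181.4, 124.6, 89.6 and 163.9 CPM in cones of the control, 2, 4 and 8 weeks libraries, with the 4 weeks value under that of the bipolar cells of the 8 weeks library, and a log2 ratio of 2.53 ± 0.25. Bbs9 (1.87 ± 0.27), Bbs5 (1.87 ± 0.21), Ift80 (1.87 ± 0.30) and Bbs12 (1.80 ± 0.68) followed. Against single classes, 17 members were higher in cones than in Müller glia and 4 lower (15.3% and 24.7% of all genes), 17 higher and 4 lower than in amacrine cells (12.8% and 19.2%) and 26 higher and 1 lower than in microglia (19.9% and 23.1%). Against bipolar cells 3 members were higher and 1 lower, beside 6.82% and 14% of all genes, so the share of members called higher was near that of all genes. Only Bbs2 and Bbs7 were called higher in cones than in each of the 4 classes, against 3.24% of all genes. The members' share was near that of all genes, so this count is no result about the members. Cep131, a centriolar satellite gene, had 9.07, 3.83, 0 and 7.23 CPM in cones, where 0 UMIs at 4 weeks allow up to 12.8 CPM by counting error, and 6.58 to 28.3 CPM in the 4 other classes, a log2 ratio of -1.54 ± 0.42 (adjusted p = 0.004). That call was lost at 10% and at 40% mitochondrial UMIs (adjusted p = 0.11 and 0.040, the latter at -0.79, under 2-fold). With at most 10% mitochondrial UMIs 11 to 57 cones per library were left and 8 members were called higher, with 7.33% of all genes.

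Rods and cones were then compared directly, in the same fit. Of the 49 members 15 were called higher in rods and 0 in cones, against 14.8% and 11.6% of all genes; the members' median log2 ratio was 0.69 and that of all genes 0.29. Cep genes made up 13 of the 15, with 13 of 28 called, while 1 of 8 Bbs genes (Bbs9, 1.26 ± 0.23) and 1 of 13 Ift genes (Ift122, 1.51 ± 0.26) were called. Cep164 had 51.4, 116.9, 119.5 and 91.6 CPM in cones, under every rod value, and stood 2.64 ± 0.22 above cones in rods (adjusted p = 1.9e-11). Cep290 had 247.9, 297.1, 217.6 and 366.3 CPM in cones and a ratio of 1.54 ± 0.21. Cep57l1 (1.52 ± 0.28) and Cep162 (1.49 ± 0.33) were next among Cep genes, and Cep120 was at 1.37 ± 0.27. For the Bbs genes the rod-to-cone ratios ran from 0.02 ± 0.23 for Bbs2 to 1.26, and for Bbs7 the ratio was 0.50 ± 0.25 (adjusted p = 0.10). At an unadjusted p under 0.05 edgeR put 3 members lower in rods than in cones (21.3% of all genes), and DESeq2's Wald test called 1 (14.3%). The lowest ratio was that of Ift46, with 57.4, 74.8, 34.1 and 81.9 CPM in cones (-0.98 ± 0.20, adjusted p = 1.6e-04, just under 2-fold), and Ift22 was at -0.76 ± 0.30 (adjusted p = 0.040). In the RefSeq annotation 25 of the 54 genes overlap another gene, 3 of them (Ift74, Cep192 and Cep295nl) on the same strand, and whether the counting used strand is not given in the sources used here, so shared reads could touch these levels. Without TMM scaling 21 members were called higher in rods, with 21.9% of all genes higher and 8.95% lower.

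**Figure D3:**
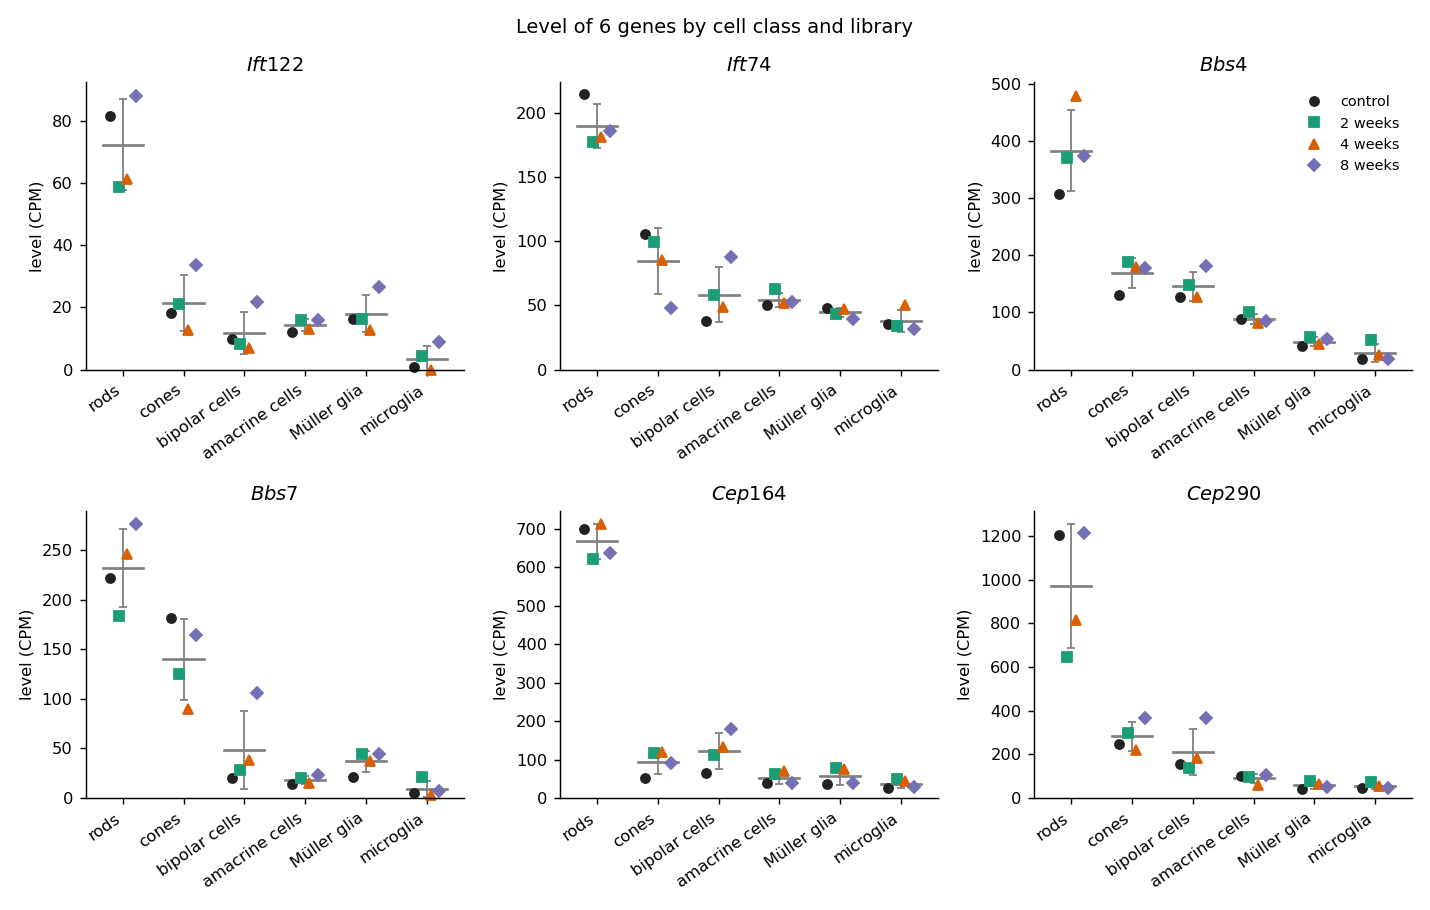
Level (CPM, vertical axes from 0) of Ift122, Ift74, Bbs4, Bbs7, Cep164 and Cep290 in 6 cell classes; points are libraries, grey lines and bars the mean and SD over 4 libraries. Bbs7 in cones reaches 181.4 CPM, near the rod values, while Cep164 in cones stays at or under 119.5 CPM against at least 620.3 CPM in rods.

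Other genes of the same machinery were counted from 7 lists with other gene names. Beside each list's counts in rods stand the shares of all genes called in that contrast, 17.3% higher and 20.5% lower. Of 15 tested IFT and BBSome genes that do not carry an Ift or Bbs name, 9 were called higher in rods and 2 lower, with a median log2 ratio of 1.58. Arl6, the GTPase that recruits the BBSome to membranes, was at 2.84 ± 0.14 in rods and 2.97 in cones, and Traf3ip1, an IFT-B subunit, was at 2.11 ± 0.15. Hspb11, the IFT-B partner of Ift27, was lower at -1.27 ± 0.14, with 223.8 to 275 CPM in Müller glia and 20.9 to 34.8 CPM in rods. Trim32, a ubiquitin ligase linked to Bardet-Biedl syndrome, was lower at -1.77 ± 0.18. Among ciliary motors and cargo carriers 10 of 16 were higher and 0 lower (median 1.31), led by Tulp1, a photoreceptor trafficking protein (3.85 ± 0.16), and the kinesin-2 subunit Kif3b (2.95 ± 0.14). The transition zone and connecting cilium list had the highest share, with 19 of 24 higher, 0 lower and a median of 1.90; Mak, a kinase of the photoreceptor axoneme (4.67 ± 0.22), and the axonemal gene Rp1l1 (4.47 ± 0.23) were at its top.

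Of 24 centriole and pericentriolar material genes with other names, 6 were called higher and 1 lower, beside 17.3% and 20.5% of all genes, with a median of 0.46; the lists were not tested against each other. Crocc, which encodes rootletin of the ciliary rootlet, was at 2.61 ± 0.10 with 284 to 435 CPM in rods, and the distal appendage gene Sclt1 was at 1.70 ± 0.15. Tubg2, a gamma-tubulin, had 36.3 to 54.8 CPM in amacrine cells and 0.77 to 1.81 CPM in rods (-2.22 ± 0.53). Nrl (4.15 ± 0.22) and Nr2e3 (4.23 ± 0.25), among 7 tested regulators, belong to the markers that named the rods, so their values are no result. Of the other 5 regulators 2 were higher, Crx and Rfx1, and Rfx5, an RFX factor known for immune genes, was lower (-1.09 ± 0.20). Genes of motile cilia were mostly too low to test: 2 of 15 were tested, with Ccdc39 higher in rods (1.86 ± 0.23) and Rsph9, a radial spoke gene, lower (-2.48 ± 0.57) but at 68.3 to 84.6 CPM in cones. Of 12 cell division genes 1, Aurka, was tested, and it was not called in rods.

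The rods of each diabetic library were then set against control rods. With 1 library per time no test was possible, so counts and log2 ratios are given with exact 95% binomial intervals that cover counting error only, and the 3 comparisons share the same control. A total of 40 members with at least 20 CPM on average in rods and 30 UMIs over the pair were used, and 4 were at least 2-fold lower with an interval excluding no change at 2 weeks, 1 at 4 weeks and 1 at 8 weeks, against 8.75%, 3.8% and 0.201% of all genes so used. At 2 and 4 weeks the members' share of lower genes was near that of all genes, so these counts are no result about the members. The count at 8 weeks rests on 1 gene. At each time 0 members were 2-fold higher, against 1.89%, 1.29% and 0.368% of genes. The members' median log2 ratio was -0.29 at 2 weeks, -0.16 at 4 weeks and 0.00 at 8 weeks, beside -0.23, 0.04 and 0.00 over all genes. Rod markers were a larger part of the rods' UMIs at 2 weeks than in the control (74913.5 against 40811.4 CPM), and TMM scaling raised the 2 weeks ratios by 0.29; the part of either in the results was not tested. A smaller number of molecules per rod and a loss of rods rich in a gene cannot be told apart in these sums.

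The 4 genes past 2-fold at 2 weeks were Cep295, Cep162, Cep70 and Ift81. Cep295 had 66.1 CPM (399 UMIs) in control rods and 11.5 (88 UMIs), 19.1 (125 UMIs) and 24.2 CPM (120 UMIs) at 2, 4 and 8 weeks, and it was the 1 gene past 2-fold at 4 and 8 weeks. Cep162 had 70.2, 23.1, 44.4 and 62.9 CPM, a log2 ratio of -1.60 at 2 weeks (interval -1.87 to -1.35) and -0.16 at 8 weeks (-0.38 to 0.06). Cep70, a centrosomal protein that binds gamma-tubulin, had 66.8, 25.7, 34.5 and 53.6 CPM, with -1.38 at 2 weeks (-1.63 to -1.13). Ift81 had 82, 38.2, 42 and 91.5 CPM, with -1.10 at 2 weeks (-1.32 to -0.89) and 0.16 at 8 weeks (-0.03 to 0.35); under TMM scaling its 2 weeks ratio was under 2-fold. For the last 3 genes the control and 8 weeks rods were the high libraries and the 2 weeks rods the low one. Cep290 followed the same order at under 2-fold, with -0.90 at 2 weeks (-0.95 to -0.84), -0.57 at 4 weeks (-0.62 to -0.51) and 0.01 at 8 weeks (-0.04 to 0.06). Cep164 stayed within -0.18 and 0.02 at the 3 times in the sum of all rods.

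**Figure D4:**
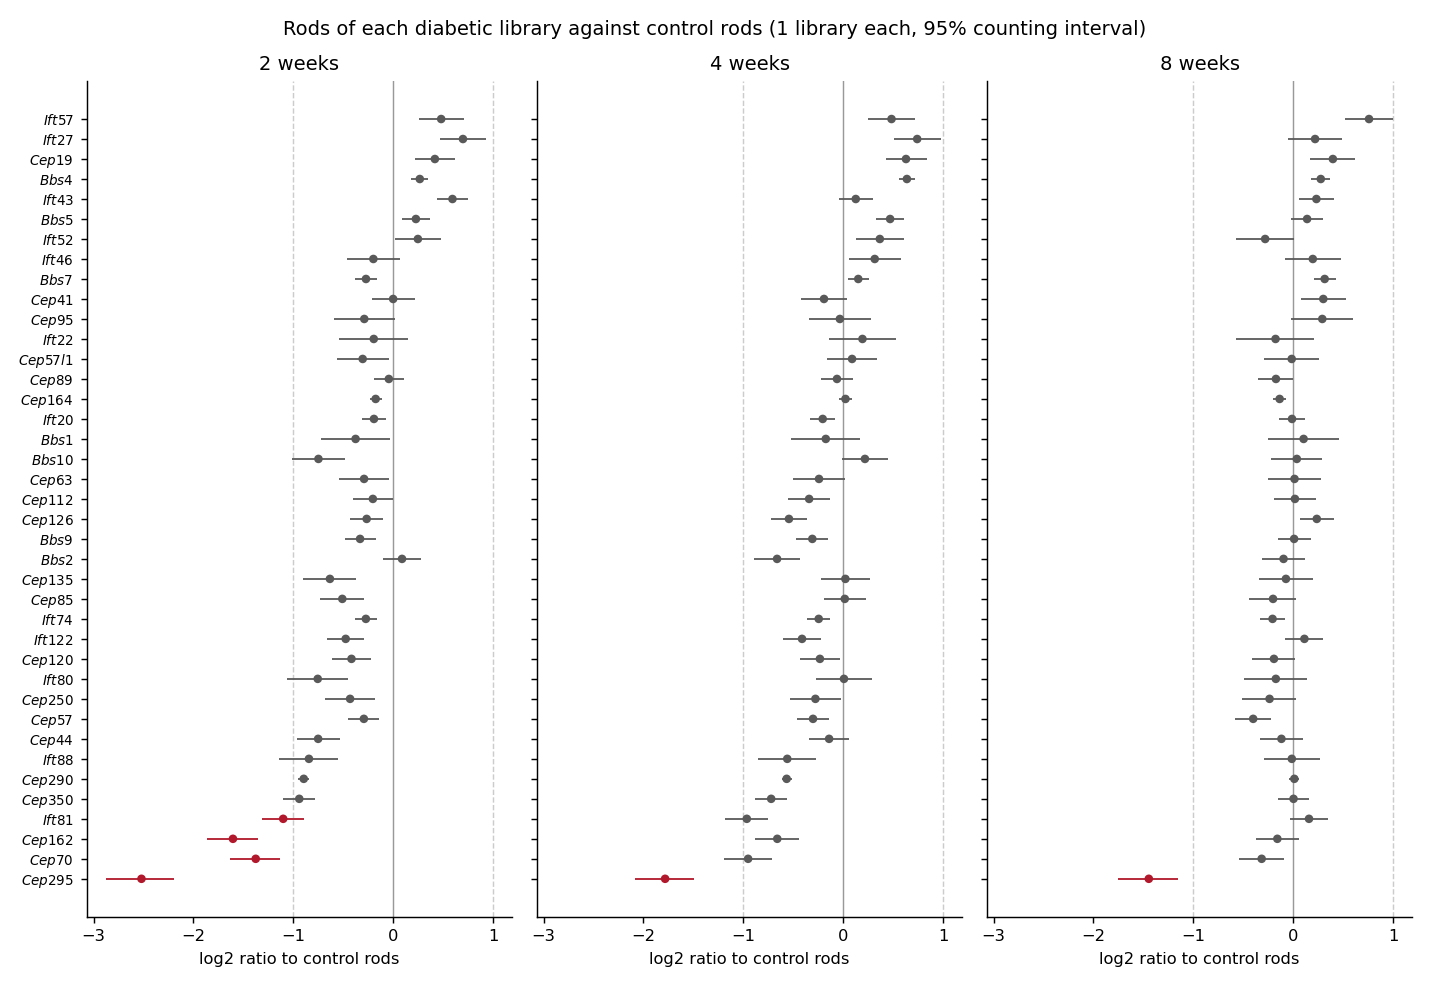
Log2 ratio of CPM in rods of the 2, 4 and 8 weeks libraries to control rods for 39 members, ordered by their mean; lines are exact 95% intervals for counting error, dashed lines mark 2-fold and red marks ratios past 2-fold with an interval excluding 0. At 2 weeks 4 genes lie past 2-fold lower, at 4 and 8 weeks Cep295 alone, and 0 lie past 2-fold higher. Of all genes, 8.75%, 3.8% and 0.201% lay past 2-fold lower at 2, 4 and 8 weeks, near the members' share at 2 and 4 weeks.

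Rods of the 4 libraries fell mostly into different clusters, with 4477 of the 2 weeks rods in rod cluster 0, 3881 of the 4 weeks rods in cluster 1 and the control and 8 weeks rods mostly in clusters 2 and 3, so ratios were also taken within clusters, where few control rods fell into the clusters that held most 2 weeks rods. In cluster 0 the 2 weeks ratio was -0.14 for Cep70 (-1.04 to 1.09), -0.42 for Ift81 (-1.10 to 0.42) and -0.75 for Cep162 (-1.55 to 0.30), from 9, 17 and 12 control UMIs, so all 3 intervals included no change there. In cluster 3 the same genes were at -1.21 (-2.52 to -0.29), -0.84 (-1.78 to -0.12) and -0.99 (-2.14 to -0.15). Cep164, slightly under the control at 2 weeks over all rods (-0.18), was above it within clusters 0 (0.46, interval 0.22 to 0.72) and 3 (0.28, interval 0.08 to 0.47), and at -0.05 in cluster 2 (-0.28 to 0.17). In cluster 3 Cep295 had 64.1 CPM in the control and 24.9 CPM at 8 weeks (log2 ratio -1.36, interval -1.73 to -1.01), and in cluster 0 it had 41.1 CPM and, at 2 weeks, 11.6 CPM (-1.87, interval -2.68 to -0.88). In cluster 2 it had 72.7 CPM in the control and 11.7, 15.9 and 28.1 CPM at 2, 4 and 8 weeks. The control also had the highest Cep295 level in cones (21.2 CPM, then 13.4, 4.3 and 4.8 CPM), bipolar cells (35.8, 10.1, 11.2 and 22.4 CPM), amacrine cells (27.9, 19, 8.2 and 15.2 CPM) and Müller glia (17.2, 7.1, 6.3 and 4.4 CPM), though not in microglia (12.2, 11.8, 19 and 7.5 CPM). The control was thus the high library in 5 of 6 classes, although outside rods the level of this gene was too low for its ratio to be used. Cep290 was lower at 2 and 4 weeks than in the control in each of the 5 rod clusters, by 0.21 to 0.74 and 0.28 to 0.48 on the log2 scale.

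Of the 40 members used at all 3 times, 3 were above control rods each time by their intervals: Bbs4, Cep19 and Ift57. The same held for 7.53% of all genes, near the members' share, so the count is no result about the members. Bbs4 had the lowest CPM in the control in each of the 5 rod clusters, as in cluster 3, where it had 315 CPM in the control and 432.1, 536.1 and 372.1 CPM at 2, 4 and 8 weeks. Ift57, an IFT-B subunit, had 41.9, 58.5, 58.7 and 70.9 CPM in rods, with 0.76 at 8 weeks (0.52 to 1.00). Cep19 had 52.3, 70, 81 and 68.9 CPM. Unlike Bbs4, these genes were not above the control in every cluster: in cluster 0 Cep19 had 85.2 CPM in the control and 71.4, 76.8 and 81.3 CPM at 2, 4 and 8 weeks, all with intervals that included no change, and Ift57 was at 0.04 at 2 weeks (-0.58 to 0.80). In cluster 2 Cep19 was at 1.04 at 4 weeks (0.55 to 1.52) and Ift57 at 1.12 at 2 weeks (0.35 to 1.79). Below the control at all 3 times were 4 of the 40, Cep295, Cep57, Cep70 and Ift74, a share also not far from the 7.81% of all genes. Ift74 was at -0.27, -0.25 and -0.21 over all rods. At 2 weeks, however, Cep57 was at 0.46 in cluster 0 and 0.34 in cluster 3, and Ift74 at -0.08 and 0.13, with intervals that included no change. Ratios of single families did not go 1 way: at 2 weeks Ift27 was at 0.70 (0.47 to 0.93) and Ift43 at 0.59 (0.44 to 0.75), while Ift88 was at -0.84 (-1.14 to -0.55) and Ift80 at -0.75 (-1.07 to -0.45). Within cluster 0 the same 4 genes were at -0.24 (-0.81 to 0.45), 0.24 (-0.21 to 0.76), -1.12 (-1.88 to -0.15) and -0.61 (-1.48 to 0.56), and in cluster 3 Ift27 was at 0.71 (-0.15 to 1.41) and Ift43 at -0.27 (-1.06 to 0.37), so the higher Ift27 and Ift43 values did not hold in every cluster.

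In the bipolar cells of the 8 weeks library, 8 of 26 members used were at least 2-fold higher than in the control and 0 lower, against 5.59% of all genes higher. They were Bbs5, Bbs7, Cep89, Cep126, Cep164, Cep290, Cep350 and Ift74, and Bbs7 had the largest ratio of the 8, with 19.9 CPM in the control and 106.3 CPM at 8 weeks (log2 ratio 2.39, interval 1.75 to 3.16). Rod markers summed to 4270.7 CPM in control bipolar cells and 16684.4 CPM in those of the 8 weeks library, and each of the 8 genes but Cep350 was among the 20 called higher in rods than in each of the 4 classes; the part of rod RNA in this result was not tested. The make-up of the class also moved: 1 bipolar cluster, whose second-best marker score was that of rods, held 7 of 254 bipolar cells in the control and 68 of 363 at 8 weeks. Without that cluster, a choice made after seeing the data, 1 of 26 members (Bbs7, at 1.08, interval 0.32 to 1.93) was past 2-fold at 8 weeks, beside 1.13% of all genes, and rod markers summed to 3739.4 CPM in the control and 5931.8 CPM at 8 weeks. Cep164 was then at 0.25 (-0.25 to 0.77) and Cep290 at 0.33 (0.02 to 0.65). At 4 weeks Cep164 alone was past 2-fold in bipolar cells (1.02, interval 0.59 to 1.48), against 2.14% of genes higher. For the bipolar cells at 8 weeks, 1.08% of all genes were 2-fold lower.

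In Müller glia, 21 members were used. Cep164 had 36.6 CPM in the control, 79 CPM at 2 weeks, 75.6 CPM at 4 weeks and 39.8 CPM at 8 weeks, and Bbs7 had 21.7, 44.6, 37.8 and 44.2 CPM. Both were past 2-fold at 2 weeks (2.58% of all genes higher), Cep164 with Cep78 at 4 weeks (2.05%) and Bbs7 alone at 8 weeks (1.95%). Cep78 had 14.9 CPM in the control and 39.9 CPM at 4 weeks (1.40, interval 0.60 to 2.28). Rod markers in Müller glia summed to 1645.2, 10198.4, 2408.5 and 1524.1 CPM in the same libraries, and their part in the Cep164 and Bbs7 values was not tested. Cones, with 10 to 19 members used, showed the same gene, Cep164, at 51.4, 116.9, 119.5 and 91.6 CPM, past 2-fold at 2 weeks (2.94% of genes) and 4 weeks (2.46%). Rod markers in cones summed to 17186.4, 23432.6, 14159.4 and 18146.5 CPM in the same libraries, and their part in the cone Cep164 values was not tested. In the cones of the 4 weeks library Bbs2 (25 UMIs in the control and 5 at 4 weeks) and Ift43 (40 and 11 UMIs) were lower (2.88% of genes), and Ift74 was lower at 8 weeks (35 and 20 UMIs; 1.05% of genes). In amacrine cells Ift81 was lower at 4 weeks (-1.02, interval -1.92 to -0.21; 1.48% of genes), and in microglia Bbs4 was higher at 2 weeks (1.45, interval 0.63 to 2.33; 6.84% of genes). These were the members past 2-fold with an interval excluding no change outside rods and bipolar cells.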

How the data were processed

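Single-cell RNA libraries of rat retina were sequenced, and the deposited count matrices hold UMI counts per gene and barcode, made by the authors with Cell Ranger 3.0.1 on build Rnor_6.0, per the submitters' processing notes. Of 5 samples, 4 libraries were used, each from 1 retinal specimen; control replicate 1 was not analysed here. Barcodes were kept where 200 or more genes were detected and mitochondrial UMIs made up 20% or less. The barcodes with the highest Scrublet scores (0.8% per 1000 barcodes) were removed as doublets: 577, 1627, 721 and 279 in the control, 2, 4 and 8 weeks libraries. Cells were clustered with scanpy 1.11.5 (2000 variable genes, 30 principal components, 15 neighbours, Leiden resolution 1.0 with leidenalg 0.10.2, 24 clusters), without the 54 genes, the gene lists other than markers, and mitochondrial genes. Clusters were named from marker genes, so differences from the study may come from rebuilt names.

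UMIs were summed into 24 class sums and tested with edgeR 4.0.16 (R 4.3.3; quasi-likelihood test, TMM scaling, library block, at least 5 CPM on average); p-values were Benjamini-Hochberg adjusted over all 10000 genes. The fit was tested on simulated data. The library block pairs classes of the same retinal specimen. Since shifts common to all classes of a library go into the block, p-values measure how class differences vary between libraries. These libraries span control and diabetic retina, 1 each, so that spread mixes time and individual. DESeq2 1.42.0 was an alternative. Time ratios used CPM with 0.5 UMI added and exact binomial intervals (scipy 1.17.1), for counting error only. Motifs were searched in RefSeq promoters of build GRCr8; coordinates of other builds were not used.

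Members and lists were chosen with earlier results of these data known. Named with values were the 10 members with the largest called rod ratios, the 5 highest and lowest called in cones and in rods against cones, 3 members per other class with the highest relative level, members past 2-fold in time, a list of well-known members, and up to 4 genes per list; other members named were chosen after their values were seen. The searches for GTTGCC and TAATCC, and leaving out bipolar cells, were added after the data were seen. A member of the Cep genes enters the counts, sums and medians but is not reported by name or plotted singly here.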

Additional observations from a re-analysis of the deposited data

How the results depend on the processing

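The count of 28 members higher in rods than in the other classes ran from 20 at a mean of at least 20 CPM (15.6% of all genes) to 38 without a minimum fold (37.1%). It ran from 28 to 30 with each library left out. At a mean of at least 20 CPM only 30 members were tested in each class contrast, so fewer could be called. Among members called higher and named, Ift88 lost its call with DESeq2's size factors. The count of 0 lower became 1 without the level filter and 2 without a minimum fold. Cones had 19 members higher, 11 at a mean of at least 20 CPM (11.2% of all genes) and 8 at 10% mitochondrial UMIs (7.33%), and 15 to 18 with each library left out. Their 1 lower member was lost in 3 alternatives (0 at 20 CPM, at 10% and at 40% mitochondrial UMIs), and the count was 1 to 3 with each library left out, 3 without the 2 weeks library. Rods against cones gave 15 higher, 7 at a mean of at least 20 CPM (14.3% of all genes), 25 without a minimum fold (24.2%) and 24 at 1.5-fold (22.9%), and 14 to 15 with each library left out. The count of 0 lower became 1 with DESeq2's size factors, DESeq2's Wald test, 40% mitochondrial UMIs or doublets kept, and 2 without a minimum fold or at 1.5-fold; it was 0 to 1 with each library left out, 1 without the 4 weeks library. Without the library block that pairs classes of 1 specimen, 28 members were higher in rods, 19 in cones and 14 in rods against cones, and 19 in rods against each of the 4 classes. In rods over time, at 1.5-fold 2, 3 and 1 members were higher at 2, 4 and 8 weeks and 11 and 6 lower at 2 and 4 weeks. With a minimum of 5 CPM 11 and 4 were lower at 2 and 4 weeks, and at 50 CPM 2, 0 and 0 at 2, 4 and 8 weeks, since Cep295 is then not used. Shares of all genes under these rules are not given here, so these time counts are no result about the members. Over all genes the median log2 ratio in rods at 2 weeks was -0.23 under the main rule. For the times, no test or leave-one-out was possible with 1 library each. No paired analysis was possible because each time is 1 library. Under the alternatives of filter, scaling, test, block and left-out library, 0 called values reversed; within single rod clusters, Cep164 at 2 weeks (0.46 in cluster 0), Ift27 at 2 weeks (-0.24 in cluster 0), Ift43 (-0.27 in cluster 3), Cep57 (0.46 in cluster 0) and Cep19 (-0.28 in cluster 0) had the opposite sign to the ratio over all rods. The cause of these shifts was not tested, beyond those that a filter or threshold sets by its construction. Depth limits cones most, with 234402 UMIs in the 4 weeks library.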
